A study of Homo sapiens with 4 samples.

Results

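The kinases, cyclins and inhibitors that set the G1 checkpoint were read on 4 Affymetrix U133 Plus 2.0 arrays of MDA-MB-361, an established HER2-positive breast cancer cell line. The genes were CDK6, CDK4, CCND1, CCND3, CDKN1B, CDKN2C, RB1 and RBL2, and every probe set that the platform annotation gives to 1 of them alone was taken, whatever its value. Of the 8 genes, 7 had such a probe set, out of 19775 genes that did, with 17 of the 54675 probe sets on the array, and CDKN2C was not analysed here. There was 1 array from each of 3 lines that the labels call clones, shDCD clone 1, shDCD clone 2 and shDCD clone 3. All 3 express hairpin RNAs targeting dermcidin (DCD) from the lentiviral vector pLKO-puro, and the sequence targeted differs between hairpins. The reference was 1 array of the same line carrying the pLKO control vector. All 4 lines therefore share the vector. The labels do not say which clone holds which hairpin, and with 1 array a clone, the effects of hairpin, clone and array cannot be told apart. No group has a replicate of its own, and the comparisons all share the single pLKO array.

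In G1, the D cyclins CCND1 and CCND3 bind and activate the kinases CDK4 and CDK6. These kinases phosphorylate the retinoblastoma protein RB1 and its relative RBL2 (p130), which until then hold E2F transcription factors in check. CDKN2C (p18) belongs to the inhibitors that bind CDK4 and CDK6 directly, and CDKN1B (p27) restrains the CDK2 complexes that act next. In luminal and HER2-positive breast cancer this checkpoint is the target of the CDK4/6 inhibitor drugs.

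The arrays differed in RNA quality. Comparing the 3' with the 5' control probe sets of ACTB, a ratio that goes up when RNA is degraded or labelling is incomplete, gave 9.67 in shDCD clone 1, 2.58 in clone 2 and 42.6 in clone 3, against 5.29 in pLKO. GAPDH gave 2.18, 1.02 and 13.1 for the shDCD clones in that order, and 1.09 for pLKO. The part of RNA quality in the results was not tested. DCD itself had deposited intensities of 7, 6 and 2.7 in clones 1, 2 and 3, against 2 in pLKO, all far under the value of 16 used here as the floor of measurement, so the knockdown could not be checked on these arrays. The study reports lower DCD RNA and protein in its shRNA lines by RT-PCR, immunocytochemistry and immunoblotting. All 7 luminal and HER2 markers (ERBB2, ESR1, GATA3, KRT8, KRT18, KRT19 and EPCAM) passed the filter, and the brightest probe sets of the 7 summed to between 12359 and 34567 over the shDCD arrays, against 20253 in pLKO. After the normalization given below, 4 of the 7 (ESR1, GATA3, KRT8 and KRT18) were higher than pLKO in all 3 comparisons, beside 18.8% of all named genes. This rests on the scaling. As deposited, ESR1, KRT8 and KRT18 lay under pLKO in clone 3, at 113, 938 and 6420, against 234, 2212 and 7276. ERBB2, KRT19 and EPCAM did not go one way, and were 3.10-fold, 2.71-fold and 2.23-fold lower in clone 3. GATA3, a luminal transcription factor singled out here after its values were seen, was 4.39-fold, 2.60-fold and 7.28-fold higher in clones 1, 2 and 3. Of 6 basal, stromal and leukocyte markers, KRT5, KRT14, VIM and PTPRC had no probe set that passed the filter, while COL1A1 and PECAM1 had. The sum of the 6 ran from 257 to 350 over the shDCD arrays, against 342 in pLKO. COL1A1 made up most of it, at 200, 254 and 212 in clones 1, 2 and 3, against 228 in pLKO.

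Unless stated otherwise, values below are deposited intensities in linear units, and log2 differences are of each shDCD array minus pLKO after quantile normalization, with values under 16 set to 16. Of the 17 probe sets, 14 were among the 27307 that passed a filter on mean signal, and the 3 that did not were all for CDK6. A difference between 2 single arrays has no replicate error. In bulk RNA, a transcript lost from some of the cells and one lowered in each cell also cannot be told apart.

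**Figure D1:**
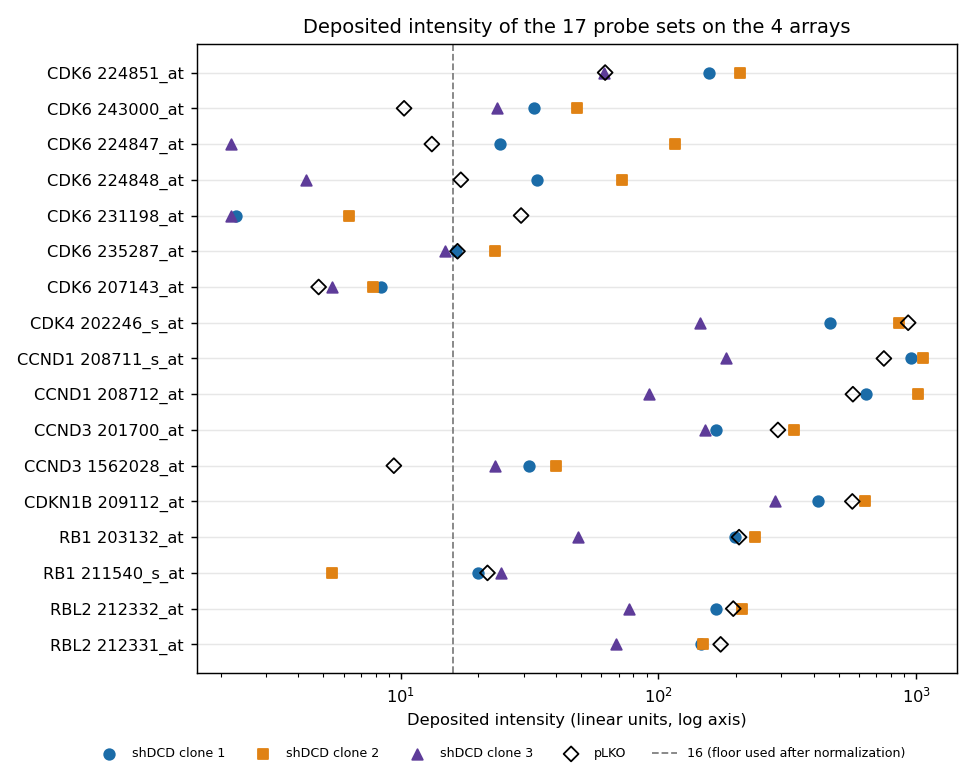
Deposited intensity (log axis) of the 17 probe sets on each array (filled circle, shDCD clone 1; square, clone 2; triangle, clone 3; open diamond, pLKO), with the dashed line at 16. CDK6 224851_at lies at 157 and 207 in shDCD clones 1 and 2 and near the pLKO value of 62.1 in clone 3, while CDK4 lies highest in pLKO at 931.

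CDK6 was the member with the largest mean normalized difference from pLKO. Its brightest probe set, 224851_at, had intensities of 157 in shDCD clone 1, 207 in clone 2 and 61.7 in clone 3, against 62.1 in pLKO. Clones 1 and 2 stood above pLKO, and clone 3 lay beside it before normalization. After quantile normalization it was 3.43-fold higher than pLKO in clone 1, 2.34-fold in clone 2 and 2.14-fold in clone 3, with a mean log2 difference of 1.37 ± 0.36 (SD, n = 3 comparisons). The study itself names CDK6 among altered genes of these arrays, without a direction in its text, so a CDK6 difference here is not independent evidence. In the values as deposited the log2 difference in clone 3 was -0.01, whereas median centring of each array gave 0.61, so whether clone 3 belongs with the others rests on the scaling. The median of all probe sets tested moved to -0.91 in clone 3 without normalization, to -0.38 in clone 1 and to 0.36 in clone 2.

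The probe set 243000_at, also annotated to CDK6, had intensities of 32.9, 48.2 and 23.6 in shDCD clones 1, 2 and 3, against 10.3 in pLKO. All 3 shDCD arrays were above pLKO here, and pLKO was at the floor after normalization. The differences are therefore bounds of at least 2.05-fold in clone 1, 2.21-fold in clone 2 and 2.23-fold in clone 3. A probe set at the floor in pLKO could pass the filter only through the shDCD arrays, so that its direction was set by passing.

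The pair 224847_at and 224848_at gave another picture of CDK6 in clone 3. The first had 24.2, 116 and 2.2 in shDCD clones 1, 2 and 3, against 13.2 in pLKO, which makes it at least 1.47-fold higher in clone 1 and 4.64-fold higher in clone 2, with clone 3 and pLKO both at the floor. The second had 33.8, 71.9 and 4.3, against 17.1 in pLKO, and was 2.11-fold higher in clone 1 and 3.09-fold higher in clone 2. On both probe sets clone 2 was the highest array in deposited intensity. Clone 3 was the lowest on 224848_at, while on 224847_at clone 3 and pLKO were both under 16 and have no order. Clone 3 also had the largest ACTB and GAPDH ratios, and clone 2 the smallest, and their part here was not tested.

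The remaining CDK6 probe sets were dim. The only one annotated on a RefSeq mRNA, 207143_at, had 8.4, 7.8 and 5.4 in shDCD clones 1, 2 and 3, against 4.8 in pLKO, and gives no difference since all 4 arrays were at the floor. The intensities of 235287_at were 16.4, 23.2 and 14.9, against 16.6 in pLKO, and pLKO was at the floor after normalization, so its log2 differences of 0.18 in clone 2 and 0.42 in clone 3 are lower bounds. The opposite direction was seen at 231198_at, with 2.3, 6.3 and 2.2, against 29.3 in pLKO, where all 3 shDCD arrays were at the floor and lay at least 1.68-fold lower. The 7 CDK6 probe sets thus gave no single picture, with 2 higher in all 3 comparisons, 1 lower, and 4 that did not go one way. Each of these 4 had an array at the floor, which leaves a direction unmeasured rather than shown to differ. The 1 lower did not pass the filter.

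**Figure D2:**
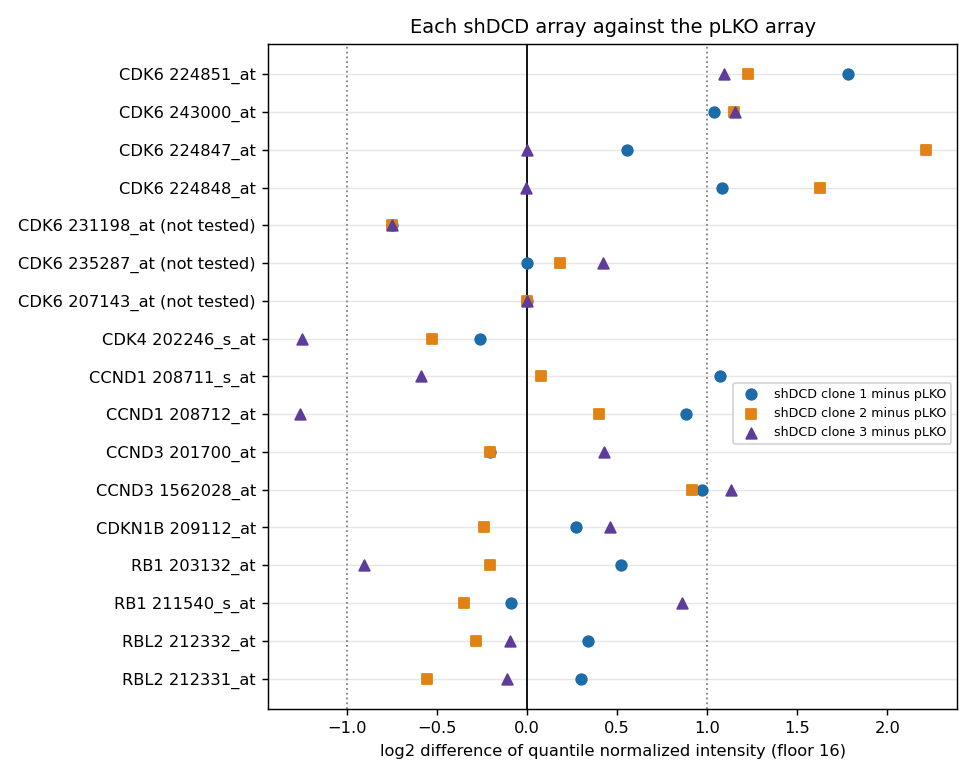
log2 difference of quantile normalized intensity between each shDCD array and pLKO for the 17 probe sets (circle, clone 1; square, clone 2; triangle, clone 3), with the solid line at 0 and dotted lines at 2-fold. CDK6 224851_at and 243000_at lie right of the 2-fold line in all 3 comparisons, CDK4 lies left of 0 in all 3, and CCND1 runs from above 0 in clone 1 to below 0 in clone 3.

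CDK4, the close relative of CDK6 that shares its D cyclin partners, lay on the other side of pLKO. Its single probe set, 202246_s_at, had intensities of 462 in shDCD clone 1, 856 in clone 2 and 145 in clone 3, against 931 in pLKO, so that pLKO was the highest of the 4 arrays. After normalization CDK4 was 1.20-fold lower in clone 1, 1.44-fold lower in clone 2 and 2.38-fold lower in clone 3, with a mean log2 difference of -0.68 ± 0.51 (SD, n = 3 comparisons). It was lower in all 3 comparisons under each scaling, where median centring gave a mean of -1.14 and the deposited values one of -1.27. The smallest difference was in clone 2 without normalization, at -0.12.

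The start regions of this pair are shown here because CDK4 is known as a target of MYC, which binds the E-box CACGTG. Any part of MYC in the differences above was not tested. The bases are the 250 before a RefSeq start site in GRCh38.p14, on the minus strand for both genes, and capitals mark CACGTG, a motif that reads the same on both strands. CDK4 is at chr12:57752311-57752560, and the start sites listed for CDK6 at chr7:92836574-92836823 and chr7:92833960-92834209.
CDK4: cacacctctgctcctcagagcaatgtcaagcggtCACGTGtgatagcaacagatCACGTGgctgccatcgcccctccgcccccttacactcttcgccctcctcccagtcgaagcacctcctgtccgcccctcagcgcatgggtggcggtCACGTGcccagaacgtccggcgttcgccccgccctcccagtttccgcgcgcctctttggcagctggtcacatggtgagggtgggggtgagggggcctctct
CDK6, first start: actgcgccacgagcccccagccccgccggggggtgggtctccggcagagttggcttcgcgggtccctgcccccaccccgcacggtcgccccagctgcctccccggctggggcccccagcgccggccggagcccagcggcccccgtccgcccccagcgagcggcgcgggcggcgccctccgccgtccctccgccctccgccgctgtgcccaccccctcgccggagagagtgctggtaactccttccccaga
CDK6, second start: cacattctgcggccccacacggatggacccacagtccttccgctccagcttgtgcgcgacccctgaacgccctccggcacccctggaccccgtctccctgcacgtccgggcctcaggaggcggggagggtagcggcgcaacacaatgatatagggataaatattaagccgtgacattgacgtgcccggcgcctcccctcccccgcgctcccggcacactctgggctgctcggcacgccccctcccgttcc
The CDK4 region held 3 copies, beginning 216, 196 and 101 bases before the start, and neither CDK6 region held 1. Of the 7 genes with a listed start region, CDKN2C was the only other with a copy. Of the 35116 RefSeq start regions of this length, 6.34% held at least 1 copy and 0.0797% held 3 or more. The region upstream of the first CDK6 start was 80.0% G and C, that of CDK4 65.6%. These are matches of letters and no measure of binding.

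CDK6 and CDK4 were also compared within each array. Any factor applied to a whole array drops out when the log2 difference of 1 gene is subtracted from that of another, although quantile normalization, which is no single factor, does not. From the deposited values, CDK6 224851_at was higher relative to CDK4 by a log2 value of 2.35 in shDCD clone 1, 1.86 in clone 2 and 2.68 in clone 3, each measured against the same ratio in pLKO. This is 5.10-fold, 3.62-fold and 6.40-fold. With quantile normalized values it was 2.04, 1.76 and 2.34. Among the 9 probe sets of these genes with at least 16 on every array, 224851_at was the only one of CDK6. It stood above each of the 8 others in all 24 such values, which reuse its same 3 differences. These ran from 0.90 against CCND1 208712_at in clone 2 to 2.68 against CDK4 in clone 3. The limit of 16 left out CDK6 224847_at and 224848_at, at 2.2 and 4.3 in clone 3, so this holds for 224851_at alone. Of the 18878 tested probe sets with at least 16 on every array, 4.92% also exceeded those 8 in all 3 comparisons. A ratio within an array shows unequal differences, and cannot say which gene moved. RNA quality need not act on all probe sets of an array by a single factor, so it need not drop out. The CDK6 to CDK4 values and the ACTB ratios (9.67, 2.58 and 42.6 in clones 1, 2 and 3) were both largest in clone 3 and smallest in clone 2. The part of RNA quality in this ratio was not tested.

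**Figure D3:**
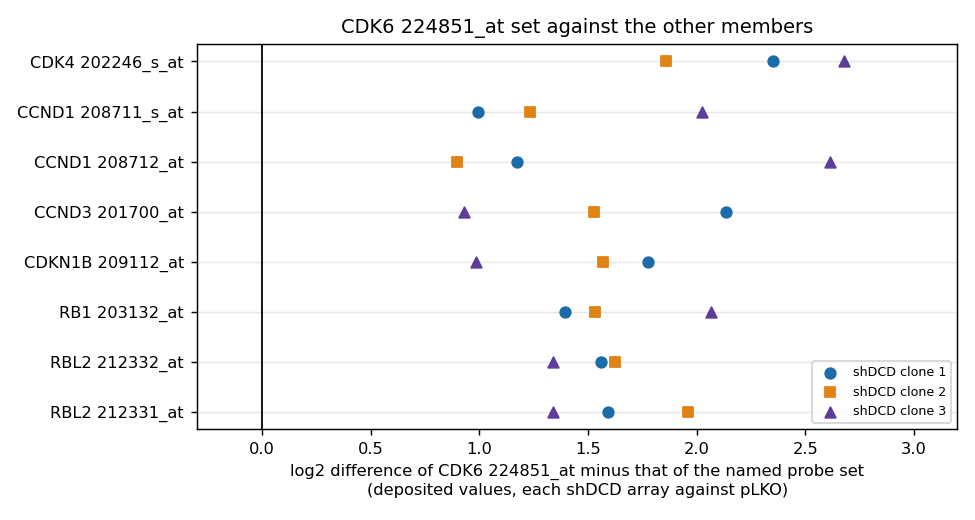
log2 difference from pLKO of CDK6 224851_at minus that of each of 8 other probe sets, from deposited values, in each shDCD array (circle, clone 1; square, clone 2; triangle, clone 3). All 24 points lie above 0, the closest at 0.90 and the farthest, for CDK4 in clone 3, at 2.68.

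CCND1, the main D cyclin of luminal breast cancer cells, split the shDCD clones. By 208711_s_at it had 952 in shDCD clone 1, 1062 in clone 2 and 183 in clone 3, against 750 in pLKO. By 208712_at it had 636, 1015 and 92.3 in the same order, against 568 in pLKO. Clones 1 and 2 were above pLKO and clone 3 below it on both probe sets, and this order against pLKO was the same under all 3 scalings. After normalization CCND1 was 2.10-fold and 1.84-fold higher in clone 1 by these probe sets, 1.05-fold and 1.32-fold higher in clone 2, and 1.5-fold and 2.40-fold lower in clone 3. The mean log2 difference was 0.19 ± 0.83 for 208711_s_at and 0.01 ± 1.12 for 208712_at (SD, n = 3 comparisons), each smaller than its spread.

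CCND3, the D cyclin more often linked to blood cells, gave unlike values by its probe sets. The brighter, 201700_at, had 168 in shDCD clone 1, 336 in clone 2 and 152 in clone 3, against 291 in pLKO, and its log2 differences were -0.20, -0.20 and 0.43. In clone 3 the sign turned, to -0.32 with median centring and -0.94 without normalization, and in clone 2 it turned to 0.21 without normalization, so no direction can be given there. The dimmer, 1562028_at, had 31.5, 40.2 and 23.3 in the same order, against 9.4 in pLKO, a difference of at least 1.96-fold in clone 1, 1.89-fold in clone 2 and 2.19-fold in clone 3. This one was above pLKO in all 3 clones before normalization too, but as with CDK6 243000_at, pLKO was at the floor and the probe set passed the filter through the shDCD arrays.

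CDKN1B (p27) had no direction that held in all 3 comparisons and under each scaling. Its probe set had 418 in shDCD clone 1, 634 in clone 2 and 284 in clone 3, against 565 in pLKO. The log2 differences after normalization were 0.27, -0.24 and 0.46, which with median centring became -0.39, -0.10 and -0.37. The pLKO value lay inside the range of the shDCD arrays on both the deposited and the quantile normalized scale.

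RB1 was read by a bright and a dim probe set. The bright one, 203132_at, had 197 in shDCD clone 1, 237 in clone 2 and 48.7 in clone 3, against 206 in pLKO. Clones 1 and 2 were close to pLKO and clone 3 was far below it before normalization. The log2 differences after it were 0.52, -0.20 and -0.91. The dim one, 211540_s_at, had 19.9, 5.4 and 24.4, against 21.7 in pLKO, so that it was lowest in clone 2 rather than in clone 3, with a log2 difference of 0.86 in clone 3.

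RBL2, which with E2F4 and the MuvB proteins forms the DREAM repressor of resting cells, was alike on its probe sets. By 212331_at it had 146 in shDCD clone 1, 149 in clone 2 and 68.4 in clone 3, against 174 in pLKO, and by 212332_at 167, 210 and 76.7, against 195 in pLKO. The normalized log2 differences of the first were 0.30, -0.56 and -0.11, and those of the second 0.34, -0.29 and -0.10. After normalization no comparison reached 1.5-fold, with the largest at 1.47-fold lower in clone 2 by 212331_at, and the sign in clone 1 was negative on both probe sets with the other scalings.

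Over the 14 tested probe sets, 3 were higher than pLKO in all 3 comparisons, beside 19.4% of all tested probe sets, and 1 was lower, beside 20%. The 3 were CDK6 224851_at and 243000_at and CCND3 1562028_at, and the 1 was CDK4. In 2 of the 3, all but CDK6 224851_at, pLKO was at the floor, so the filter had set their direction. Over all tested probe sets 7.23% had pLKO at the floor. These 2 are therefore not read against the backgrounds. CDK6 224851_at, which pLKO did measure, was at least 1.5-fold higher in every comparison, as were 3.04% of all tested probe sets, and 0 of the 14 were 1.5-fold lower (3.03%). It was also at least 2-fold higher in every comparison (0.637%), with 0 lower (0.765%), but this was lost in clone 3 with median centring, at a log2 difference of 0.61, and in the values as deposited, at -0.01. CDK6 243000_at, at least 2-fold higher after quantile normalization, likewise missed 2-fold with 0.98 in clone 1 after median centring and 0.56 in clone 3 as deposited. By the rule of the study, at least 3-fold in every comparison, 0 were higher (0.0366%) and 0 lower (0.176%). The rule was applied here to quantile normalized values with a floor, and the study used its own processing. CDK6, which the study names as altered, thus did not meet the rule here. The median log2 difference of the 14 was 0.54 in shDCD clone 1, -0.06 in clone 2 and -0.00 in clone 3, where that of all tested probe sets was 0 in clones 1 and 2 and -0.00 in clone 3. Probe sets of 1 gene are not independent, and these genes were taken up with results of these data known.

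limma (version 3.58.1), fitted to the 3 shDCD arrays against pLKO, called 0% of the 27307 probe sets at an adjusted p under 0.05, and gave 80 higher and 124 lower at an unadjusted p under 0.05. None of the 14 was among those. The lowest value, for CDK6 224851_at, was a limma p of 0.0760 with a log2 difference of 1.37 (SE 0.67) and an adjusted p of 1.00, higher in 3 of 3 comparisons. Standard errors of the 14 ran from 0.64 to 0.92. The methods' t-test on the 3 differences gave 3 of the 14 at an unadjusted p under 0.05. Over all 27307 tested probe sets it gave 1245 higher and 1077 lower, and 0 after Benjamini-Hochberg adjustment. The 3 were CDK6 224851_at, CDK6 243000_at and CCND3 1562028_at. In the latter 2 pLKO was at the floor and the filter had set the direction, so they are no support. This test also takes differences that share 1 pLKO array as independent. An exact permutation test of 3 arrays against 1 cannot go below a p of 0.25.

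The genes whose differences from pLKO lay closest to those of CDK6 224851_at were PCGF5, a Polycomb subunit, ACTN4, an actin crosslinker, and EFNB2, an ephrin ligand. Likeness was the largest gap in log2 difference over the 3 comparisons, which was 0.10 for PCGF5, 0.13 for ACTN4 and 0.18 for EFNB2. PCGF5 had log2 differences of 1.79, 1.13 and 0.99 in shDCD clones 1, 2 and 3, beside 1.78, 1.23 and 1.10 for CDK6. With 4 arrays and a shared control this is a description only.

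Other genes around this checkpoint were taken from lists, each gene by its brightest tested probe set, of which CCNE1, CDK2, CDKN1A, RBL1 and E2F1 are given whatever their value, CKS1B because it differed by 2-fold in every comparison, and the others because few genes of their list went one way, a choice made after their values were seen. Over all 12728 named genes, 18.8% were higher and 21.3% lower than pLKO in all 3 comparisons. Of 9 cyclins, kinases and activators of G1 and S, 0 were higher and 1, MNAT1 of the CDK-activating kinase, was lower. CCNE1, the cyclin E that activates CDK2 after RB1, had 35.5, 65.9 and 20.9 in shDCD clones 1, 2 and 3, against 40.1 in pLKO. CDK2 had 187, 213 and 42.4, against 153 in pLKO, with log2 differences of 0.86, 0.08 and -0.72. This split, above pLKO in clone 1 and below it in clone 3, is the one seen in CCND1, and the median of the list followed it at 0.79, 0.08 and -0.76.

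Of 5 CDK inhibitors 4 were tested, of which 0 were higher and 2 were lower in all 3 comparisons. CDKN1A (p21), which p53 induces, had 155 in shDCD clone 1, 298 in clone 2 and 36.4 in clone 3, against 336 in pLKO, and was 1.43-fold, 1.47-fold and 4.22-fold lower. The pLKO array was the highest of the 4 for this gene. The other was CDKN2D (p19), an inhibitor of CDK4 and CDK6. CKS1B, the cofactor with which the ligase subunit SKP2 marks p27 for breakdown, was the only one of 10 tested, of 11 listed, regulators of p27 and D cyclins to differ by 2-fold in every comparison. It had 102, 154 and 17.8 in shDCD clones 1, 2 and 3, against 342 in pLKO, and its log2 differences were -1.17, -1.45 and -3.33. Its probe set carries the suffix that marks shared sequence, so copies of the gene may add to it. Of that list 3 were lower, with FOXO4 and AMBRA1 beside CKS1B, and 1, the kinase GSK3B, was higher.

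Of 8 partners of the pocket proteins, 1 was higher in all 3 comparisons, E2F3, and 3 were lower, E2F2, E2F5 and TFDP1. E2F1 had 71.1, 85.8 and 9.1 in shDCD clones 1, 2 and 3, against 70.7 in pLKO, and RBL1 (p107), the third pocket protein, had 54.3, 37.9 and 1.8, against 52.4 in pLKO. Both were at the floor in clone 3 after normalization and near or above pLKO in clone 1. Of 6 DREAM and MuvB subunits 5 were tested, and LIN52 was higher and LIN37 lower in all 3.

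Of 16 E2F target genes of DNA replication 15 were tested, of which 0 were higher and 3 lower in all 3 comparisons, namely MCM7, CDC6 and TYMS. The median log2 difference of the list was 0.46 in shDCD clone 1, -0.37 in clone 2 and -2.15 in clone 3. CDK6 224851_at was higher than pLKO in each of these clones after normalization, whereas the E2F targets lay above it in clone 1 and below it in the others by the median. Clone 3 is the array with the largest ACTB and GAPDH ratios, whose part in this was not tested.

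**Figure D4:**
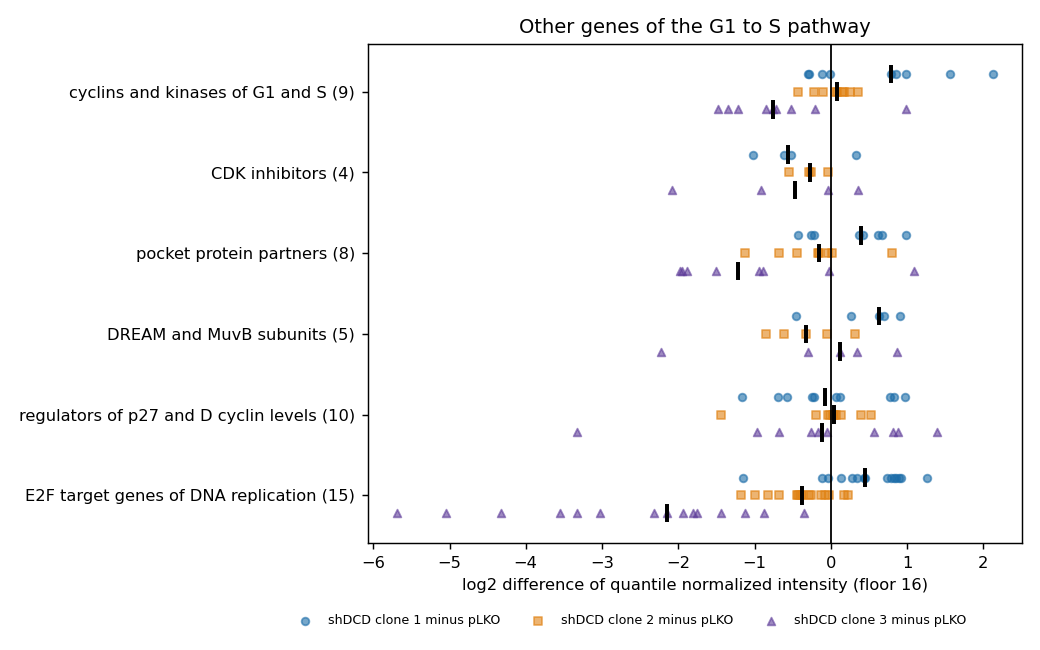
log2 difference of quantile normalized intensity from pLKO for other genes of the pathway, by list, with the number of genes in parentheses (circle, shDCD clone 1; square, clone 2; triangle, clone 3). Each point is 1 gene and each black bar the median of a list, which for the E2F targets lies at 0.46, -0.37 and -2.15.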

How the data were processed

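What the authors deposited is a linear intensity for every probe set on each Affymetrix U133 Plus 2.0 array and was used as not yet scaled across arrays. For the study's own analysis dChip is named, but the sources used here do not say which program wrote the deposited table. Here 62 control probe sets were left out, zeros became 0.1, log2 intensities were quantile normalized, and results under 16 were raised to 16. Testing covered the 27307 probe sets whose mean log2 intensity reached the median. Genes came from the platform annotation, with symbols updated through gene identifiers, for 41091 probe sets of a single gene, while 1801 listed several genes and 11721 were unnamed here. The 2 groups were compared in limma (version 3.58.1) under R 4.3.3, with 2 residual degrees of freedom and Benjamini-Hochberg adjustment over all tested probe sets. The spread of the single pLKO array is taken to equal that among the shDCD arrays, although these can differ in hairpin. The fits were tested on simulated data with the same noise on every array and no difference in RNA quality. That is a check of the code only, and no measure of how the fits perform on these arrays.

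Named beside the members were the genes of each list at least 2-fold the same way in all 3 comparisons (up to 4), CCNE1, CDK2, CDKN1A, RBL1 and E2F1, and the 3 genes most like CDK6. GATA3, COL1A1, the luminal and HER2 markers lower in clone 3, and the list genes behind counts of 3 or fewer were singled out after their values were seen. Members and lists were chosen with earlier results of these data known. Alternatives were median centring, the values as deposited, floors of 1 and 64, no filter, an upper quartile filter, each shDCD array left out, a 2-fold rule, a trend in limma and the methods' t-test. Depth on an array is its signal over background, and the number of arrays limits the precision. As deposited, 43.9% of probe sets lay under 16 in shDCD clone 1, 39.3% in clone 2, 55.1% in clone 3 and 43.4% in pLKO. Start regions are from RefSeq (GRCh38.p14), where 7 of the 8 genes had an entry. Figures were drawn with matplotlib 3.10.9.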

Additional observations from a re-analysis of the deposited data

Results flagged for a closer look

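The 3' over 5' ratios of control probe sets, which enter no comparison, were above those of pLKO in shDCD clones 1 and 3. For ACTB the ratio was 9.67 in clone 1 and 42.6 in clone 3, against 5.29 in pLKO, while GAPDH had 2.18 in clone 1 and 13.1 in clone 3, against 1.09 in pLKO. Their part in the values of the G1 genes was not tested.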

How the results depend on the processing

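Of the G1 probe sets, 3 were higher than pLKO in all 3 comparisons. This became 2 of 13 tested in the values as deposited, where CDK6 224851_at was lost at -0.01 in clone 3. It was 1 of 17 with a floor of 64 and 1 of 9 with the upper quartile filter. With 1 shDCD array left out it was 3 to 7, with 7 of 13 without clone 3. Of all 27307 tested probe sets, 2713 were higher as deposited and 8485 without clone 3. The count lower, 1, became 6 with median centring, 2 in the values as deposited, 2 without a filter, and 1 to 4 with an array left out, with 4 without clone 1. For comparison, 6774 of the 27307 tested probe sets were lower with median centring and 5325 as deposited. Without clone 1, 7263 of 27314 were lower. Of the 153 alternative mean log2 differences of single probe sets, 129 stayed within 1 SD over the comparisons and 24 moved beyond it. A changed filter cannot alter such a mean, nor a changed floor that of a bright probe set. With 1 array left out, the other comparisons are kept. The 129 is therefore no measure of robustness. The sign turned in 19 of the 153, over 8 probe sets of CCND1, CCND3, CDKN1B, RB1 and RBL2 and 0 of CDK6 and CDK4. Of the 19, 4 were beyond 1 SD, namely CCND3 201700_at (-0.38 with median centring, -0.51 as deposited) and CDKN1B (-0.29 and -0.42).

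Over all probe sets, the 3-fold rule gave 10 higher, and 246 with a floor of 1, 3 with a floor of 64, 174 at 2-fold and 34 to 142 with an array left out. It gave 48 lower, and 90 with median centring, 96 as deposited, 21 with a floor of 64, 18 with the upper quartile filter, 209 at 2-fold and 95 to 274 with an array left out. By direction, 5293 were higher, and 2713 as deposited, 2164 with a floor of 64, 2834 with the upper quartile filter and 7099 to 8711 with an array left out. The 5471 lower became 3287 with a floor of 64, 2872 with the upper quartile filter and 7263 to 8748 with an array left out. Fewer arrays make the rules easier to meet.

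limma's 0 calls became 395 with a floor of 64 and 1327 without a filter, of which 363 and 1221 had all 3 shDCD arrays at the floor and so no spread among them. Without a filter CDK6 231198_at was called, with a limma adjusted p of 0.00286. Each other setting, each array left out included, gave 0. No paired analysis was possible because a single pLKO array serves all 3 comparisons. The single pLKO array could not be left out, and probe sets under 16 have no order.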
